A study of Mus musculus with 8 samples.

Results

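The nuclear genes for subunits of mitochondrial complex I were followed in neonatal mouse bone. They were taken as every gene whose symbol starts with Nduf, continues with a, b, c, s, v or ab and then has a digit, which leaves out the Ndufaf assembly factors. The pattern matched 39 of the 14457 genes in the table. It used no measured value, but the set was chosen with earlier results of these data known. All 39 passed the filter on low values described below. The study sequenced bulk RNA from the cortical shaft of the femur on postnatal day 7, to learn what changes in bone whose osteoblasts mature poorly without SLC26A2, a sulfate transporter of the cell membrane. The CKO group (4 libraries) was Col2.3kb-Cre; Slc26a2 fl/fl, and the control group (4 libraries) was Col2.3kb-Cre; Slc26a2 fl/+. Both groups therefore carried the Cre transgene, and the controls kept an unfloxed Slc26a2 allele. The driver is a fragment of a type I collagen promoter that is active in osteoblasts, whereas the RNA came from every cell of the dissected shaft. The labels give replicate numbers but not whether each library came from its own mouse, so the p-values reflect no more than the spread of these 8 samples.

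Complex I is the entry point of the respiratory chain. It takes electrons from NADH, passes them along a row of iron-sulfur clusters to ubiquinone and uses the energy to pump protons across the inner mitochondrial membrane. It is L-shaped: the peripheral arm holds the N module, which oxidizes NADH, and the Q module, which reduces ubiquinone, and the membrane arm holds the proton pumps in a proximal and a distal part. The conserved core subunits do the catalysis and are encoded partly in the nucleus and partly in mitochondrial DNA, while the many accessory subunits, all nuclear, build and stabilize the complex. In bone, osteoblasts, osteoclasts and developing blood cells all carry mitochondria.

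The targeted gene was lower in the CKO libraries. Slc26a2 had 2.93, 2.08, 0.706 and 0.8289 FPKM in CKO libraries 1 to 4, against 4.37, 7.49, 4.85 and 4.85 FPKM in control libraries 1 to 4. FPKM counts fragments per length of transcript, scaled to the mapped fragments of the library. The mean of 1.64 ± 1.06 FPKM in CKO was 69.6% below the 5.39 ± 1.42 FPKM in control (SD, n = 4 each; exact two-sided permutation test, p = 0.0286, the smallest that 70 assignments allow). In the limma fit its log2 fold change was -1.34 (SE 0.30, adjusted p = 0.0412). The direction held in every alternative that tested it. But the call was lost on leaving out CKO library 1, 2 or 3 or control library 2, 3 or 4 (adjusted p = 0.0547 to 0.163). It was also lost with equal totals, median-of-ratios scaling, removal of the length trend and the Y-linked covariate (0.0582 to 0.113). With the blood cell covariate it was lost too (0.965).

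The libraries differed in more than Slc26a2. FPKM summed to between 431612 and 598419 in the CKO libraries, against 352283 to 379669 in the control libraries, with no overlap. CKO library 4 stood apart: 155 genes were at 0 there, against 9 to 31 in the other CKO libraries and 5 to 26 in the control libraries. The mitochondrial genome supplied 2.92% of all FPKM in that library, against 9.91% to 14.8% in the other CKO libraries and 9.13% to 14.7% in the control libraries. The summed FPKM of 8 erythroid markers lay between 17972 and 70781 in CKO and between 3835 and 13029 in control, and that of 8 neutrophil markers between 6108 and 27469 in CKO and between 788 and 3913 in control. Neither sum overlapped between the groups. The 9 osteoblast and osteocyte markers summed to 5894 to 31824 FPKM in CKO, the highest in CKO library 4, and to 29057 to 36725 FPKM in control. The 10 skeletal muscle markers overlapped widely, at 101.4 to 6267 FPKM in CKO and 39.6 to 2429 FPKM in control. The labelled tissue thus held its defining bone genes in every library, next to abundant blood cell RNA. Y-linked genes were at 0 in CKO libraries 1, 2 and 3 and in control library 1, and summed to 17.5 FPKM in CKO library 4 and to between 37.4 and 42.2 FPKM in the other control libraries.

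Nearly all complex I subunit genes had more RNA in CKO than in control shafts. Their summed FPKM was 2693, 2741, 4420 and 5142 in CKO libraries 1 to 4, against 1701, 1281, 1212 and 1711 in control libraries 1 to 4. The mean sum of 3749 ± 1228 FPKM in CKO was 2.54 times the 1476 ± 267 FPKM in control (SD, n = 4 each). The lowest CKO library lay well above the highest control library. Since FPKM totals were also higher in CKO, the share of all FPKM is a second view of the same genes. Complex I subunits took 0.608%, 0.635%, 0.739% and 0.896% of the FPKM in CKO libraries 1 to 4, against 0.457%, 0.364%, 0.342% and 0.451% in control libraries 1 to 4, again with no overlap. In bulk tissue, a change in the mix of cells and a change in RNA per cell cannot be told apart.

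Gene by gene, log2(FPKM + 1) was fitted with limma on the 12748 genes that reached 1 FPKM in at least 4 libraries, and a gene was called when its Benjamini-Hochberg adjusted p was under 0.05. The fold changes given are on this log2(FPKM + 1) scale, on which changes of weakly expressed genes come out too small. Of the 39 subunit genes, 19 were called higher in CKO, where 3.88% of all genes tested were, and 0 were called lower, where 0.651% of all genes were. At an unadjusted p under 0.05, 34 were higher, against 15.9% of all genes, and 0 were lower. The median log2 fold change was 1.23 over the subunit genes and 0.015 over all genes tested, and it was positive for 38 of the 39. In 33 of them every CKO library lay above every control library, which was so for 12.7% of all genes. In 0 of them did every CKO library lie below every control library, which was so for 6% of all genes. The groups overlapped for 6 genes, among them Ndufb2, Ndufs1, Ndufs3, Ndufs7 and Ndufa4l2. The adjusted p-values of the 19 called genes lay between 0.0388 and 0.0497, close to the threshold, and so the calls were easily gained or lost. Without CKO library 4 the count of called subunit genes was 28, and the share of all genes called higher also rose, to 12.1%. Without CKO library 1, 2 or 3 or control library 2, 3 or 4 the count was 0 in each case. The median over the subunit genes stayed between 1.10 and 1.36. With equal FPKM totals the median over all genes moved to -0.37 and that over the subunit genes to 0.77. Of the 39, 36 were then positive and 0 called. Median-of-ratios scaling left 0 called and quantile normalization 3, beside 1.07% of all genes called higher with the latter. In the authors' deposited table, made from the same libraries, 30 of the 39 were higher in CKO after Benjamini-Hochberg adjustment of its p-values, against 8.4% of its 14457 genes, and 0 were lower, against 5.64%.

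**Figure D1:**
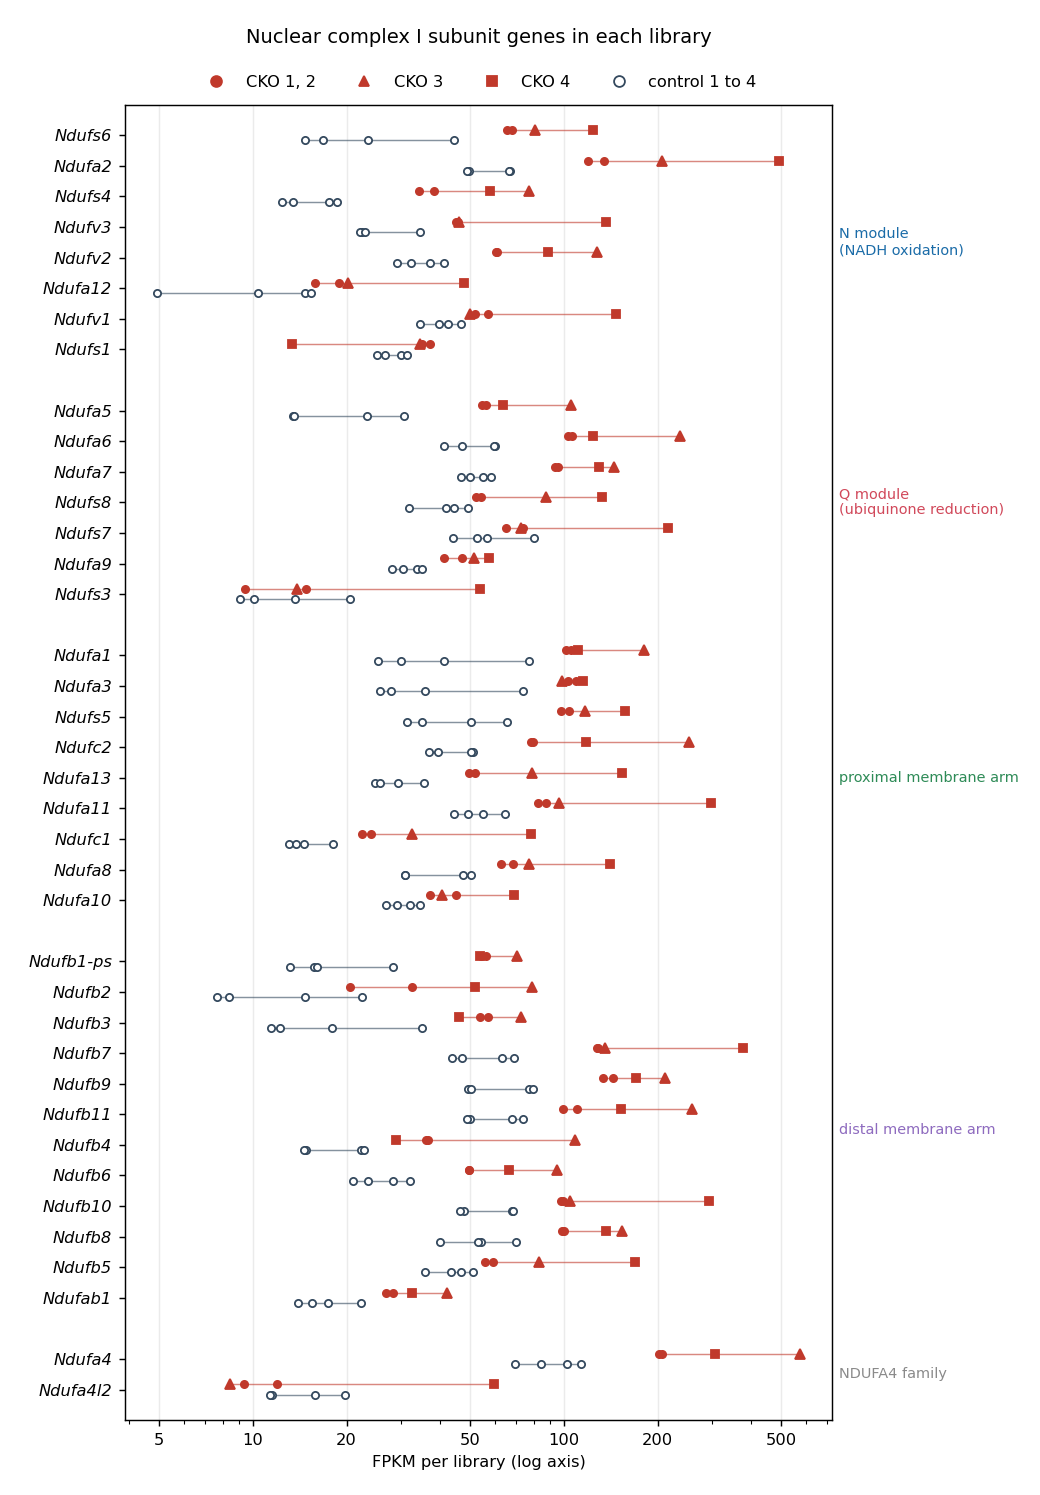
FPKM of 38 of the 39 nuclear complex I subunit genes in each library on a log axis, grouped by the part of the complex, with CKO libraries as filled red symbols (circles for 1 and 2, a triangle for 3, a square for 4) and control libraries as open circles. For 33 genes every CKO symbol lies to the right of every control symbol, and the highest value is the triangle or the square for 37 of those drawn.

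The start regions of 34 of the 39 genes were found in the RefSeq promoter table for GRCm38.p6, in 36 windows of 300 bases that run from upstream of the transcription start into the transcript, with Ndufb1-ps matched through its RefSeq name Ndufb1. Ndufa2, Ndufa4l2, Ndufb9 and Ndufs1 were among those not in it. NRF1, YY1 and factors of the ETS family such as GABP are known to act on many respiratory chain promoters. On either strand, the NRF1 sequence (GCGC, any base, then TGCGC) was present in 8 windows (22.22%) of 7 subunit genes, against 4.603% of all 32851 windows. The YY1 sequence AAGATGGCG was in 5 windows (13.89%), against 1.403% of all. The ETS sequence CCGGAAG was in 4 (11.11%), against 8.858% of all, the cAMP-response sequence TGACGTCA in 3 (8.333%), against 1.79%, and TATAAA in 5 (13.89%), against 13.62%. A match describes these letters and does not show a bound site. The promoters of Ndufs6 and Ndufa5, the genes with the largest and the third largest log2 fold change, and of Ndufs4 are given for the subunits that stood higher in CKO, and that of Ndufs3 for a subunit whose groups overlapped. Each runs 5′ to 3′ along its gene, all of which lie on the minus strand, with the NRF1, YY1 or ETS matches in capitals. No match in these windows overlaps another. All the promoters given hold a match, whereas many of the other windows hold no NRF1, YY1 or ETS match. The kind of match did not divide the genes by their change. Ndufs7, whose groups overlapped, has a YY1 match, and the called genes Ndufb6 and Ndufb7 have ETS matches.
Ndufs6, chr13:73328433-73328732, with an NRF1 and a YY1 match: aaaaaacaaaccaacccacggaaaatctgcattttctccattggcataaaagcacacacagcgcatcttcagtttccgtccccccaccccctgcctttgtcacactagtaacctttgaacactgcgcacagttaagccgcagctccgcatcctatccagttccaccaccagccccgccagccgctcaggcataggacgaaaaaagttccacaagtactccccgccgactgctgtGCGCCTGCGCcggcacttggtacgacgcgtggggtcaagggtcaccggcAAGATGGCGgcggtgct
Ndufa5, chr6:24527641-24527940, with an NRF1 match: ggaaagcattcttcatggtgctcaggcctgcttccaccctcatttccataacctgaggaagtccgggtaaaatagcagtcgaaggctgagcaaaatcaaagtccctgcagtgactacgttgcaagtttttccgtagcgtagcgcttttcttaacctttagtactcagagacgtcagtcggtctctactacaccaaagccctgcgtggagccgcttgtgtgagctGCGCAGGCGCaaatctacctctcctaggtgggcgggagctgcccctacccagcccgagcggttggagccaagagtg
Ndufs4, chr13:114388045-114388344, with a YY1 match: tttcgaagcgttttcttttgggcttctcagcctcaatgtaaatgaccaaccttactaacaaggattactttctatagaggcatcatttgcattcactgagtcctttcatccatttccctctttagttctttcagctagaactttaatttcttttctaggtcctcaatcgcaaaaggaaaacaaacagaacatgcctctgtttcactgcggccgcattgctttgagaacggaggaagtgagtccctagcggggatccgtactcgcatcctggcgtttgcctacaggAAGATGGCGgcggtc
Ndufs3, chr2:90904672-90904971, with 2 ETS matches: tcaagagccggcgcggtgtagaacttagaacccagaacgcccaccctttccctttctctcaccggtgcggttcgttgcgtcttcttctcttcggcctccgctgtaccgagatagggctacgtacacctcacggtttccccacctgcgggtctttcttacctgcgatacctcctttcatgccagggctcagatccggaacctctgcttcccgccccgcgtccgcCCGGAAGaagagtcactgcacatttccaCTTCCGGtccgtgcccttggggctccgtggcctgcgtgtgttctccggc

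In the N module, the tip of the peripheral arm, 4 of 8 genes were called higher, beside 3.88% of all genes tested. In 7 every CKO library lay above every control library, beside 12.7% of all genes, and the log2 fold change was positive for 7. Ndufs6 (ENSMUSG00000021606, chr13:73319838-73328542, minus strand), an accessory subunit that binds zinc, had 68.2, 65.5, 80.7 and 124 FPKM in CKO libraries 1 to 4, against 44.4, 14.7, 16.8 and 23.4 FPKM in control libraries 1 to 4. Control library 1 stood higher than the other control libraries but below all CKO libraries. Its log2 fold change of 1.81 (SE 0.34, adjusted p = 0.0388) was the largest of the 39. Ndufs4 (ENSMUSG00000021764, chr13:114287795-114388258, minus strand) sits where the N and Q modules meet, and its loss causes a Leigh-like encephalopathy in mice. It had 34.2, 38.3, 77.2 and 58.0 FPKM in CKO, against 18.7, 13.5, 12.4 and 17.5 FPKM in control, a log2 fold change of 1.63 (SE 0.28, adjusted p = 0.0388). CKO libraries 3 and 4 were the highest, and the control libraries lay close together.

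Ndufv2, a core subunit that carries an iron-sulfur cluster, had 60.9, 60.5, 127 and 89.0 FPKM in CKO, against 36.96, 29.0, 32.1 and 41.3 FPKM in control. It rose by 1.197 on the log2 scale (SE 0.27, adjusted p = 0.0412) and was the only core subunit called in this fit. Ndufa2, an accessory subunit with a thioredoxin-like fold, was the other gene of the module that passed (log2 fold change 1.796, SE 0.40, adjusted p = 0.0416), with 492 FPKM in CKO library 4 and 119.6 to 207 FPKM in the other CKO libraries, against 48.6 to 67.2 FPKM in control. The core subunit Ndufs1 (ENSMUSG00000025968, chr1:63143596-63176833, minus strand) holds several of the iron-sulfur clusters, and it was the exception. It had 35.0, 36.96, 34.4 and 13.4 FPKM in CKO, against 25.1, 29.9, 26.5 and 31.4 FPKM in control. CKO libraries 1 to 3 lay above all control libraries and CKO library 4 below them, which gave a log2 fold change of -0.012 (SE 0.31, adjusted p = 0.985), and 0.32 without CKO library 4 (adjusted p = 0.128). Ndufv1, which binds NADH and the flavin, had groups that did not overlap but was not called (0.74, SE 0.33, adjusted p = 0.192).

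In the Q module 3 of 8 genes were called higher, beside 3.88% of all genes tested. In 5 every CKO library lay above every control library, beside 12.7% of all genes, and the log2 fold change was positive for all 8. All 3 called genes are accessory subunits. Ndufa5 (ENSMUSG00000023089, chr6:24518666-24528013, minus strand) had 56.1, 54.6, 106 and 63.6 FPKM in CKO, against 30.6, 13.5, 13.6 and 23.2 FPKM in control (log2 fold change 1.77, SE 0.31, adjusted p = 0.0388). Ndufa6, a LYR-motif protein that docks the acyl carrier protein, had 103, 106, 236 and 124 FPKM in CKO, against 60.0, 47.0, 41.2 and 59.7 FPKM in control (1.37, SE 0.29, adjusted p = 0.0388). Both peaked in CKO library 3. Ndufa7 had 93.5, 95.6, 145 and 130 FPKM in CKO, against 55.0, 49.9, 46.7 and 58.4 FPKM in control (1.11, SE 0.21, adjusted p = 0.0388). Of the called genes with values per library here it had the smallest standard error, but its log2 fold change turned to -0.20 (adjusted p = 0.564) without the length trend.

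None of the 4 core subunits of the Q module was called. Ndufs3 had 9.46, 14.8, 13.8 and 53.8 FPKM in CKO, against 10.1, 9.07, 13.7 and 20.6 FPKM in control (0.48, SE 0.47, adjusted p = 0.551). Its higher CKO mean came from CKO library 4, without which the log2 fold change was -0.024. Ndufs7, which carries the last cluster before ubiquinone, had 73.6, 65.0, 72.7 and 216 FPKM in CKO, against 44.0, 56.4, 52.7 and 79.9 FPKM in control (0.70, SE 0.37, adjusted p = 0.267). Here too CKO library 4 was far above the others, and the log2 fold change without it was 0.30. Ndufs8 had 52.3 to 132 FPKM in CKO, against 31.8 to 49.0 FPKM in control, and was not called (0.86, adjusted p = 0.114).

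In the proximal membrane arm 4 of 9 genes were called higher, beside 3.88% of all genes tested. In all 9 every CKO library lay above every control library, beside 12.7% of all genes. Ndufa1, an X-linked single-pass membrane subunit needed for assembly, had 105, 102, 181 and 111 FPKM in CKO, against 76.9, 29.8, 25.2 and 41.1 FPKM in control (log2 fold change 1.60, SE 0.34, adjusted p = 0.0406). Ndufa3, another small membrane subunit, had 109, 103, 98.2 and 115 FPKM in CKO, against 73.9, 27.8, 25.6 and 35.7 FPKM in control (1.49, SE 0.31, adjusted p = 0.0388). Ndufs5, which lies on the side of the intermembrane space, had 98.1, 103, 117 and 157 FPKM in CKO, against 65.5, 31.2, 35.1 and 50.3 FPKM in control (1.40, SE 0.27, adjusted p = 0.0388). In all 3 genes control library 1 was the highest control and lay closest to the CKO range. Ndufa13, which is also known as GRIM-19, was the remaining call (1.36, SE 0.34, adjusted p = 0.0497). Ndufa8, Ndufa10, Ndufa11, Ndufc1 and Ndufc2 had log2 fold changes of 0.59 to 1.39 and were not called.

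In the distal membrane arm 7 of 12 genes were called higher, beside 3.88% of all genes tested. In 11 every CKO library lay above every control library, beside 12.7% of all genes, and the log2 fold change was positive for all 12. Ndufb1-ps (ENSMUSG00000113902, chr12:101968090-101977068, minus strand) is typed as a noncoding RNA of a bidirectional promoter in GENCODE M21, but RefSeq GRCm38.p6 lists the symbol as a synonym of the protein-coding gene Ndufb1. It had 56.0, 54.3, 70.5 and 53.9 FPKM in CKO, against 28.2, 15.7, 13.2 and 16.1 FPKM in control, and of the 39 genes it had the smallest unadjusted limma p (3.6e-05; log2 fold change 1.68, SE 0.24, adjusted p = 0.0388). Its CKO values lay close together, CKO library 4 included. Ndufb9, like Ndufa6 a LYR-motif protein, had 134, 143, 211 and 170.2 FPKM in CKO, against 77.2, 49.3, 50.3 and 79.6 FPKM in control (1.36, SE 0.25, adjusted p = 0.0388). Ndufb3, a single-pass membrane subunit, had 56.96, 53.7, 72.9 and 45.8 FPKM in CKO, against 35.0, 12.2, 11.4 and 18.0 FPKM in control (1.65, SE 0.33, adjusted p = 0.0388).

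Ndufb6, Ndufb7, Ndufb8 and Ndufb11 were also called higher, by 1.16 to 1.62 on the log2 scale. Ndufb2 was the distal subunit with overlapping groups. It had 20.5, 32.4, 79.2 and 51.7 FPKM in CKO, against 22.5, 7.66, 8.39 and 14.7 FPKM in control, and narrowly missed the threshold (1.67, SE 0.43, adjusted p = 0.0546). CKO library 1 lay just below control library 1, and the other CKO libraries lay above all controls. Ndufab1, the mitochondrial acyl carrier protein that also serves lipoic acid synthesis, had 26.8 to 42.0 FPKM in CKO, against 13.96 to 22.3 FPKM in control (0.87, SE 0.22, adjusted p = 0.051).

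Ndufa4 and Ndufa4l2 carry complex I names, although NDUFA4 is now known as a subunit of cytochrome c oxidase and NDUFA4L2 as its hypoxia-induced relative. They differed. Ndufa4 (ENSMUSG00000029632, chr6:11900292-11907497, minus strand) had 202, 206, 573 and 305 FPKM in CKO, against 102, 84.6, 69.3 and 113 FPKM in control (log2 fold change 1.67, SE 0.34, adjusted p = 0.0388). Ndufa4l2 had 9.33, 11.9, 8.45 and 59.5 FPKM in CKO, against 11.51, 11.3, 15.8 and 19.8 FPKM in control (0.12, SE 0.52, adjusted p = 0.909). CKO library 4 alone was above the controls, and the log2 fold change was -0.50 without it, -0.32 with equal FPKM totals and -0.06 with quantile normalization. Leaving out both genes, 18 of 37 subunit genes were called, and the median log2 fold change was again 1.23.

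**Figure D2:**
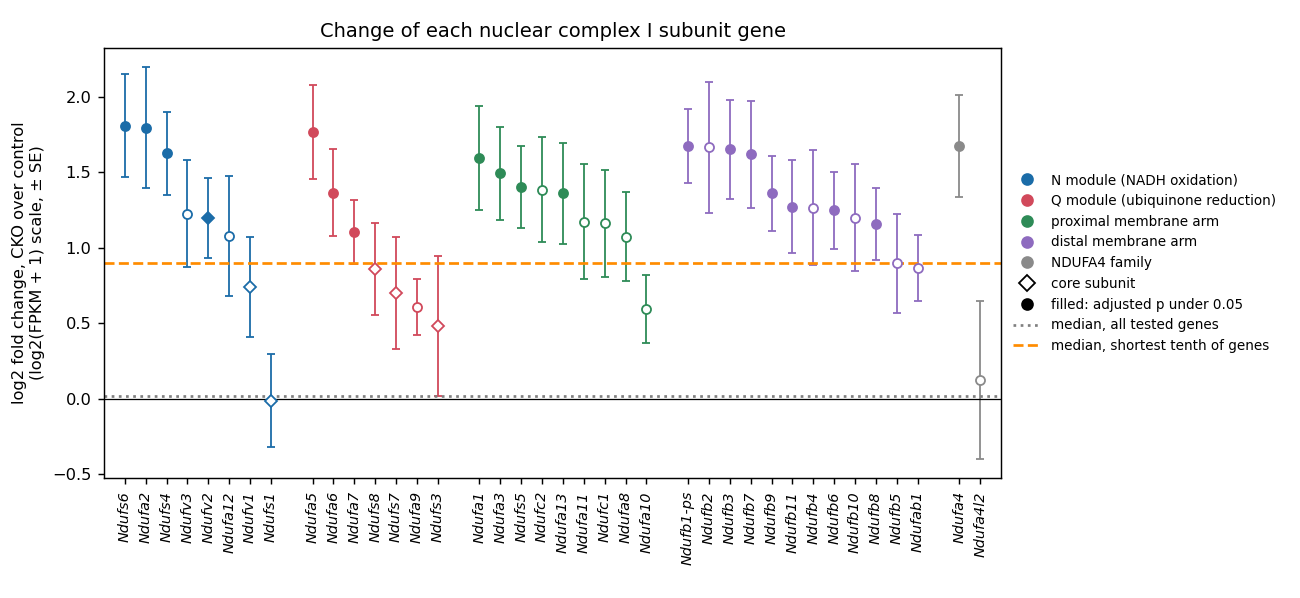
Log2 fold change of 38 of the 39 subunit genes, CKO over control, on the log2(FPKM + 1) scale with its standard error from limma, grouped by the part of the complex. Filled symbols mark the 19 called genes and diamonds the core subunits, the dotted line is the median of all genes tested (0.015) and the dashed line the median of the length decile with the shortest transcripts (0.90).

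Core subunits stood less far above the controls than accessory subunits. Of the 30 accessory subunits, 17 were called higher, 29 had groups without overlap and the median log2 fold change was 1.32, positive for all 30. Of the 7 nuclear core subunits, 1 was called higher, 3 had groups without overlap and the median was 0.70, positive for 6. Over all genes tested, 3.88% were called higher, and in 12.7% every CKO library lay above every control library. The difference of the medians, core minus accessory, was -0.61. It was -0.40 without the length trend, -0.19 with the Y-linked covariate and -0.97 with the skeletal muscle covariate, and -0.38 and -0.20 within the libraries without and with Y-linked RNA. A share within a library does not depend on how that library was scaled. Core subunits made up 15.1%, 15.3%, 12.6% and 15.3% of the summed FPKM of the 37 genes in CKO libraries 1 to 4, against 16.6%, 23.8%, 22.5% and 22.4% in control libraries 1 to 4. The mean was 14.5 ± 1.30% in CKO and 21.3 ± 3.22% in control (SD, n = 4 each). The groups did not overlap, but control library 1 came close to the CKO range. Taken singly, some genes had a lower share of the summed FPKM in every CKO than in every control library. They were core subunits, Ndufs1 among them, and the accessory subunits Ndufa9 and Ndufa10. Ndufa2 and Ndufs4 had a higher share in every CKO than in every control library. Ndufs1 made up 1.41%, 1.46%, 0.896% and 0.28% of the sum in CKO libraries 1 to 4, against 1.58%, 2.53%, 2.36% and 1.99% in control libraries 1 to 4.

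The 7 core subunits of the membrane arm are encoded in mitochondrial DNA, and none of them was called. Their median log2 fold change was -0.49, and 1 of 7 was positive. Much of that value came from CKO library 4, without which the median was -0.075. The median was -0.037 with the blood cell covariate and 0.11 within the libraries without Y-linked RNA. By mean FPKM, mt-Nd1, which forms part of the quinone channel, and mt-Nd4, a proton-pumping subunit, were the highest. mt-Nd1 had 4710.1, 3875, 9480 and 719.7 FPKM in CKO, against 3927, 2778, 4006 and 5188 FPKM in control (log2 fold change -0.22, SE 0.68, adjusted p = 0.871). mt-Nd4 had 2619.6, 2163, 3322 and 279 FPKM in CKO, against 2457, 2152, 3350.1 and 3918 FPKM in control (-0.93, SE 0.69, adjusted p = 0.431). CKO library 4 was the lowest library for both, and the other CKO libraries overlapped with the controls. mt-Nd3, chosen after its values were seen, was the positive one, at 462 to 2415 FPKM in CKO and 233 to 847 FPKM in control (1.30, SE 0.52, adjusted p = 0.154).

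Set against the nuclear subunits in the same library, the mitochondrial ones were scarcer in CKO. The summed FPKM of the 7 mt-Nd genes over that of the 37 nuclear genes was 6.37, 5.04, 6.10 and 1.45 in CKO libraries 1 to 4, against 9.26, 9.22, 14.3 and 12.3 in control libraries 1 to 4. The ratio averaged 4.74 ± 2.27 in CKO and 11.3 ± 2.48 in control (SD, n = 4 each), and the groups did not overlap with or without CKO library 4. The size of the gap varied: on the log2 scale it was -1.43 over all libraries, -0.93 without CKO library 4, and -0.67 and -3.02 within the libraries without and with Y-linked RNA. The mt-Nd sums themselves overlapped, at 6908 to 23404 FPKM in CKO and 10927 to 19413 FPKM in control. The ratio shows unequal change of the 2 sets and not which of them changed.

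**Figure D3:**
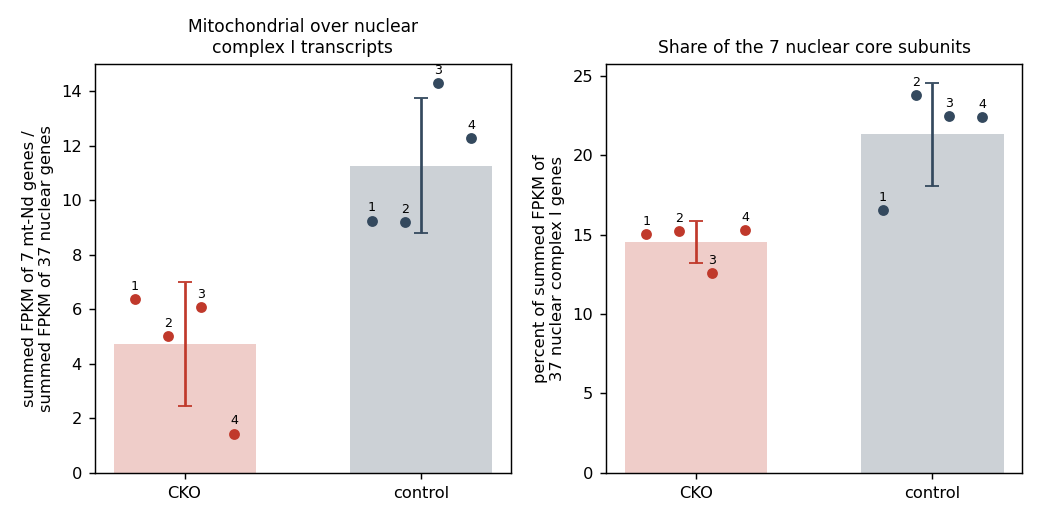
Left, summed FPKM of the 7 mt-Nd genes over that of the 37 nuclear subunit genes in each library; right, the share of the nuclear sum that came from the 7 core subunits, in percent. Points are libraries with their replicate number, bars the mean and whiskers the SD of 4 libraries; all CKO points lie below all control points in both panels.

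Factors that assemble complex I without staying in it had lower fold changes than the subunits as a group. Of 17 assembly factors in the table, 2 were called higher, beside 3.88% of all genes tested. In 7 every CKO library lay above every control library, beside 12.7% of all genes. The median log2 fold change was 0.52, positive for all 17. Their median transcript length was 1573 bases, against 934 for the subunit genes, and their median control mean 5.22 FPKM, against 39.7. Without the length trend the medians were 0.21 and 0.36. Ndufaf8, a partner of the methyltransferase Ndufaf5, had 24.3, 19.5, 36.6 and 17.6 FPKM in CKO, against 10.8, 7.78, 7.00 and 12.001 FPKM in control (1.27, SE 0.27, adjusted p = 0.039). Ndufaf2, which binds a late intermediate before the N module is complete, had 12.4, 10.4, 25.05 and 24.2 FPKM in CKO, against 10.1, 5.07, 4.23 and 5.46 FPKM in control (1.37, SE 0.34, adjusted p = 0.0497). Both had groups without overlap.

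Nuclear genes of complexes III, IV and V, counted with the ATP synthase inhibitor Atpif1, were mostly higher in CKO as well. Of these 38 genes, 20 were called higher, beside 3.88% of all genes tested. In 30 every CKO library lay above every control library, beside 12.7% of all genes. The median was 1.38, positive for all 38. Their median transcript length was 730.5 bases, and without the length trend the median log2 fold change was 0.31. Atpif1, the inhibitor of the ATP synthase, had 318, 244, 598 and 384 FPKM in CKO, against 154, 85.0, 81.8 and 85.6 FPKM in control (1.89, SE 0.32, adjusted p = 0.0388). Cox6b1, a cytochrome c oxidase subunit, had 193, 201, 252 and 274 FPKM in CKO, against 108, 72.3, 68.2 and 106 FPKM in control (1.38, SE 0.24, adjusted p = 0.0388).

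Complex II, the tricarboxylic acid cycle and the regulators of mitochondrial biogenesis held 0 calls by limma. At an unadjusted p under 0.05, 2 of 13 cycle enzymes and 2 of 11 regulators were higher, near the 15.9% of all genes tested. These counts show nothing particular to those lists. In complex II 2 of 4 genes were higher, but 4 genes are too few to set against that share. The median log2 fold change was 0.41 over the 4 genes of complex II, 0.28 over 13 cycle enzymes and -0.03 over 11 regulators. In complex II, Sdhb, its iron-sulfur subunit, had 115 ± 36.6 FPKM in CKO and 60.5 ± 12.2 FPKM in control (0.89, adjusted p = 0.0752), and Sdhd, a membrane anchor, 97.2 ± 27.9 FPKM in CKO and 63.2 ± 7.87 FPKM in control (0.57, adjusted p = 0.191; SD, n = 4 each). Of the cycle enzymes, Mdh2, the mitochondrial malate dehydrogenase, had a log2 fold change of 0.46 (adjusted p = 0.424). The transcription factor Nrf1 had 15.1, 16.0, 16.6 and 16.7 FPKM in CKO, against 12.4, 12.3, 11.9 and 9.02 FPKM in control. Its groups did not overlap, but its log2 fold change of 0.47 (SE 0.18) was not called (adjusted p = 0.136). Yy1 had 15.1, 14.8, 14.3 and 8.26 FPKM in CKO, against 16.8, 17.4, 14.8 and 12.7 FPKM in control (-0.24, adjusted p = 0.542). The coactivator gene Ppargc1a was under 1 FPKM in every library and was not tested.

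The subunit genes are short, and short genes as a class stood higher in CKO. The longest coding transcript had a median length of 934 bases over the 39 genes, from 419 in Ndufa1 to 4371 in Ndufb2, against 3085 bases over all genes tested. In the shortest length decile of all genes, with transcripts of 204 to 1260 bases, the median log2 fold change was 0.90, and 23.1% of its 1215 genes were called higher. It held 28 of the subunit genes, of which 16 were called higher and 23 lay above the median of that decile, with a median of their own of 1.32. Across genes, which are not independent replicates, Spearman's rho between log2 fold change and length was -0.52 over the 39 and -0.63 over 12121 genes. After the trend with length had been taken out of each library, the median over the subunit genes was 0.36 and 0 were called, with 10 at an unadjusted p under 0.05 in either direction, as 17.3% of all genes then were. Lengths also differed between the classes above, with a median of 1623 bases for the core and 868 for the accessory subunits. The longest annotated transcript need not be the one expressed here.

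**Figure D4:**
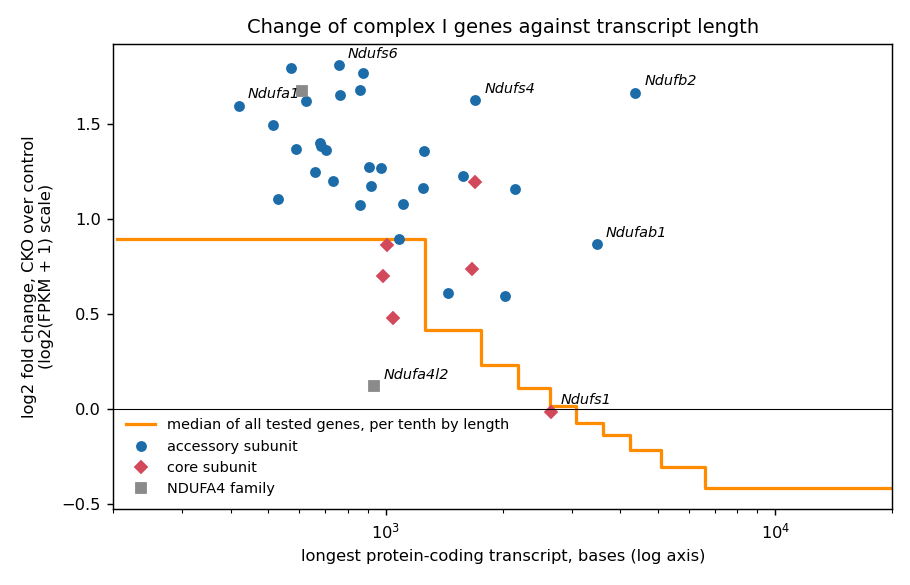
Log2 fold change of 38 of the 39 subunit genes, CKO over control, against the length of its longest annotated coding transcript in bases (log axis), with the median of all tested genes in each length decile as an orange step line. Most subunit genes lie at the short end, where the step line is at 0.90, and 23 of the 28 in that decile lie above it.

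Within CKO the subunit genes split into a pair of patterns. CKO library 4 was the highest CKO library for 20 genes, among them Ndufs6, Ndufb7, Ndufs3, Ndufs7 and Ndufs8, and CKO library 3 for 18, among them Ndufa4, Ndufa5, Ndufs4 and Ndufv2. Ndufs1 was highest in CKO library 2. The median GC content of the transcript was 54.1% over the 20 genes and 48.6% over the 18. Spearman's rho between GC content and the log2 ratio of CKO library 4 to CKO library 3 was 0.57 over the 39 genes and 0.60 over 12121 genes, so the split was not particular to complex I.

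**Figure D5:**
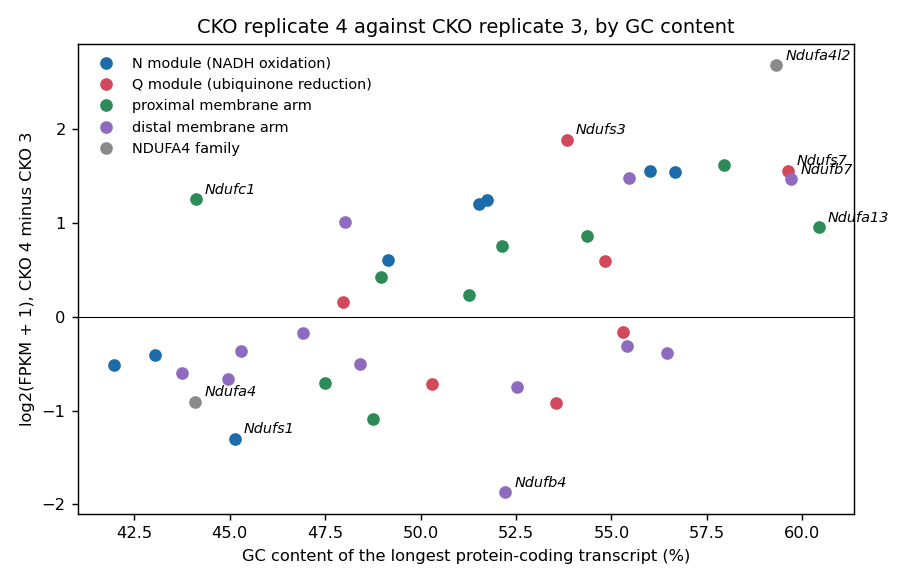
Difference in log2(FPKM + 1), CKO library 4 minus CKO library 3, for 38 of the 39 subunit genes against the GC content of its longest coding transcript, in percent. Genes above the line at 0 were higher in library 4; they lie mostly at high GC content, with a Spearman's rho of 0.57 over the 39 genes.

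The blood cell marker sums and Y-linked expression, given above, differed along with the subunit genes. A further fit took the mean log2(FPKM + 1) over the erythroid and neutrophil markers together as its covariate. In it 0 subunit genes were called, and their median log2 fold change was 1.32. An unadjusted p under 0.05 was reached by 22 of them and by 5.13% of all genes. In that fit the smallest adjusted p over all genes was 0.36. Since neither marker sum overlapped between the groups, genotype and blood cell RNA cannot be told apart by this fit. With the same mean over the skeletal muscle markers as the covariate, 23 subunit genes were called higher. The share over all genes was also larger, at 9.66%. Among the libraries without Y-linked RNA (CKO libraries 1 to 3 and control library 1) the median was 0.79, and among those with it (CKO library 4 and control libraries 2 to 4) it was 1.79, each with 1 library on one side. The corresponding medians over all genes were 0.14 and -0.24. Reads were counted at a strand setting not given in the sources used here, and 18 of the 39 genes share exonic bases with a neighbour in GENCODE M21. The longest shared stretches with a gene of the table were 616 bases between Ndufb5 and Mrpl47, 375 between Ndufa13 and Tssk6 and 257 between Ndufb6 and Smim27, all on opposite strands, so reads of these pairs may be mixed.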

How the data were processed

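Bulk RNA of 4 CKO and 4 control libraries was compared, grouped by genotype as the labels give it. Per the file headers, the deposited table holds FPKM per library, computed by the authors, with the authors' p-value and the authors' log2 fold change for each gene. The submitters' processing notes name the GRCm38 build and, among the tools, DESeq2 1.20.0, featureCounts 1.5.0-p3, HISAT2 2.0.5, fastp and CASAVA 1.8. The strand setting and annotation behind the FPKM were not given in the sources used here. Low FPKM did not fall on steps of whole reads (mean distance from a whole number 0.215 to 0.232 per library, against 0.25 by chance), so depth is unknown and no count model or counting interval was used.

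The 12748 of 14457 genes that reached 1 FPKM in 4 or more of the 8 libraries were fitted as log2(FPKM + 1) with limma 3.58.1 (eBayes with trend, genotype as the only term) in R 4.3.3, with Benjamini-Hochberg adjustment over all genes tested and a threshold of 0.05. The fit was tested on simulated data. Slc26a2 was also compared by an exact permutation test. Lengths, GC content and gene positions came from GENCODE M21 (GRCm38), in which 13482 genes were found, all 39 subunit genes among them. Promoter sequences came from RefSeq GRCm38.p6.

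The subunit genes and the gene lists were chosen with earlier results of these data known. Genes named with a value per library were, in each part of the complex, up to 3 called genes, taken by smallest p, then those with the largest and lowest log2 fold change and those with overlapping groups. In the other lists they were up to 2 called genes, or else the 2 with the highest mean. Of the genes so chosen, 2 are not reported here by name, and both stay in all counts and medians. Alternatives were other pseudocounts, filters and scalings, removal of the trend with length (loess, span 0.4), a block for the replicate number, covariates built from Y-linked, muscle and blood cell expression, array weights, and leaving out each library. Of the listed genes, Coa1 and the adipocyte markers Plin1, Ucp1 and Cidea were not analysed here, and the remaining adipocyte marker, Adipoq, was not called (log2 fold change 1.33, adjusted p = 0.172). Of the blood cell markers, 3 of 8 erythroid and 3 of 8 neutrophil genes were called higher in CKO, beside 3.88% of all genes tested. Of the others, 0 of 9 osteoblast and 0 of 10 muscle genes passed. At an unadjusted p under 0.05, 4 of the osteoblast genes were lower and 0 of the muscle genes differed. At that level 1205 of the 12748 genes tested were lower and 15.9% higher.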

Additional observations from a re-analysis of the deposited data

Results flagged for a closer look

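In groups of 4 libraries, the highest or lowest value was flagged where its gap to the nearest other took up more of the whole range than Dixon's 95% critical value allows. Of 84 groups examined, 16 had such a value. Chance flags about 1 group in 20 where values are normally distributed, which FPKM need not be. The groups also come from the same 8 libraries, so the flags are not independent. CKO library 4 accounted for 10 of them, CKO library 3 for 5 and a control library for 1.

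CKO library 4 stood above the other CKO libraries for Ndufv3 (136.8 FPKM), Ndufa12 (47.7 FPKM), Ndufv1 (147 FPKM), Ndufa4l2 (59.5 FPKM), Ndufs7 (216 FPKM), Ndufs3 (53.8 FPKM), Ndufb7 (376 FPKM), Ndufb10 (293 FPKM) and Ndufa11 (296 FPKM). It stood below them for Ndufs1, at 13.4 FPKM.

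CKO library 3 stood above the other CKO libraries for Ndufa6 (236 FPKM), Ndufb1-ps (70.5 FPKM), Ndufb4 (109 FPKM) and Ndufa1 (181 FPKM). Its share of summed subunit FPKM from core subunits, 12.6%, was below the others. Control library 1 stood above the other control libraries for Ndufv3, at 34.4 FPKM.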

How the results depend on the processing

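In all 22 alternatives the median log2 fold change of the 39 subunit genes stayed above that of all genes, but the calls depended on the setting. Against 19 subunit genes and 578 genes in all, a pseudocount of 0.1 gave 17 and 478, no filter 17 and 381, a filter at 5 FPKM 23 and 837 (Slc26a2 was then not tested), the muscle covariate 23 and 1697, quantile normalization 3 and 358, and array weights 37 and 6005, with 1 subunit gene, Ndufa4l2, then called lower. Equal totals, median-of-ratios scaling, removal of the length trend, the Y-linked covariate and the joint covariate of erythroid and neutrophil markers gave 0 and 0. Of all calls, 85.6% were higher in CKO, against 38.3% with quantile normalization and 72.5% with the muscle covariate. Leaving out 1 library gave 0 to 28 subunit genes and 0 to 1879 in all, with 0 for 6 of 8 libraries. The causes were not tested.

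Deviations from the group mean correlated at -0.03, 0.23, -0.26 and 0.43 between same-numbered CKO and control libraries. Between differently numbered ones they correlated at -0.41 to 0.45. With so few libraries, these values do not settle whether the replicate numbers pair them. With the replicate number as a block, 13 subunit genes and 274 genes in all were called.

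Slc26a2 stayed lower at -1.65 with equal totals (adjusted p = 0.0637), -1.35 with median-of-ratios scaling (0.0638) and -0.96 without the length trend (0.113). It was at -1.41 with the Y-linked covariate (0.0582), -1.18 with the blood cell covariate (0.965) and -1.86 within libraries with Y-linked RNA. It ranged from -1.56 to -1.16 with 1 library left out.

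Median log2 fold changes with equal totals were 0.77 over the subunit genes, 0.75 in the N module, 0.32 in the Q module, 0.90 in the proximal and 0.81 in the distal arm, 0.091 over assembly factors, -0.052 in complex II, 0.92 in complexes III to V, -0.18 over cycle enzymes and -0.46 over regulators. Quantile normalization gave 0.35 in the Q module, 0.91 in the proximal and 0.86 in the distal arm, 0.058 in complex II, 0.80 in complexes III to V and -0.061 over cycle enzymes. Without the length trend they were 0.36 over the subunit genes, 0.66 in the N module, 0.019 in the Q module, 0.28 in the proximal and 0.43 in the distal arm, -1.33 over mt-Nd genes, 0.21 over assembly factors, 0.12 in complex II, 0.31 in complexes III to V and -0.015 over cycle enzymes. The Q module was at 1.13 with the Y-linked and 1.09 with the blood cell covariate. With array weights the proximal arm was at 0.96 and the regulators at 0.38.

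Within libraries without Y-linked RNA the medians were 0.79 over the subunit genes, 0.57 in the N module, 0.69 in the proximal and 0.93 in the distal arm, 0.83 in complex II and 0.89 in complexes III to V. Within those with it they were 1.79 over the subunit genes, 2.09 in the N module, 1.497 in the Q module, 1.93 in the proximal and 1.61 in the distal arm, -2.42 over mt-Nd genes, -0.24 in complex II and 1.81 in complexes III to V. The log2 ratio of mt-Nd to nuclear sums differed by -1.43 over all libraries, by -0.67 within libraries without and by -3.02 within those with Y-linked RNA. The core minus accessory median was -0.40 without the length trend, -0.19 with the Y-linked covariate, -0.97 with the muscle covariate, and -0.38 and -0.20 within libraries without and with Y-linked RNA. With 1 library left out it ranged from -0.87 to -0.46, and the proximal arm from 1.02 to 1.48.

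Single genes that changed sign included Ndufa4l2 (-0.32 with equal totals, -0.061 with quantile normalization, -0.74 without the length trend, -0.31 with the muscle covariate, -0.54 with array weights, -0.50 without CKO library 4), Ndufa7 (-0.20), Ndufs3 (-0.29) and Ndufs7 (-0.12) without the length trend, and Ndufs3 also with array weights (-0.26) and without CKO library 4 (-0.024). Ndufs1 turned positive with the muscle covariate (0.10), the blood cell covariate (0.15) and array weights (0.33). It did so too without CKO library 4 (0.32), control library 2 (0.02) or control library 4 (0.04). With 1 library left out, the log2 fold change ranged from -0.14 to 0.32 for Ndufs1, from -0.50 to 0.39 for Ndufa4l2 and from -0.024 to 0.77 for Ndufs3. Depth is unknown, and with 4 libraries a group and calls close to the threshold, a gene that was not called may still differ.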
